A study of Mus musculus with 9 samples.

Results

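Of 27179 genes counted by RNA sequencing in splenic natural killer (NK) cells of C57BL/6 mice, 18 are described here. They were chosen by their level in CPM, the count scaled to a common library total. These autosomal genes were under 2 CPM in all 6 libraries of cultured cells and at 15 CPM or more in each of 3 libraries of freshly sorted cells. The cultures, 3 of Id2-null and 3 of wild-type (WT) cells, had been kept in interleukin-15 (IL-15) for 7 days. Populations named Immature, M1 and M2, with 1 wild-type library each, had been sorted from spleen and used directly. All animals were of the same strain, and no group received another treatment per the labels. The labels do not say how Id2 was deleted, whether the replicates came from separate animals, how many animals were pooled, or which surface markers defined the sorted populations. They tie culture to samples 1 to 6 by number alone, and the 6 libraries with a replicate number were taken as these.

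Of 6830 autosomal genes at 15 CPM or more in each sorted library, 20 (0.293%) stayed under 2 CPM in every culture. Immunoglobulin genes, Il7r and the Klra, Klf, Gimap, Fos, Jun, Egr, Nr4a, Dusp, S1pr and Cxcr families were left out by name, which removed Igkc and Il7r from the 20. Since the values of all 9 libraries chose the 18 genes, the difference between cultures and sorted cells is a description and no test of it is given. Just inside the 15 CPM bound was Lrp1, at 15 CPM in its lowest sorted library. Just outside were the complement genes C1qc and C1qa, at 14.8 and 14.6 CPM in M1. Just inside the 2 CPM bound were H2-Eb1, at 1.86 CPM in its highest culture, and Ifit3, at 1.29 CPM. Just outside were Heatr9 at 2.33 CPM and Gpr155 and Hhat at 2.45 CPM.

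NK cells are innate lymphocytes that kill virus-infected and tumour cells. IL-15 keeps them alive and drives them to divide in culture. A sorted library holds the RNA of every cell that passed the gate, whereas a culture holds the cells that lasted and grew in the cytokine. The spleen around NK cells is rich in red pulp macrophages, which engulf old red cells and recycle their iron, and in neutrophils, basophils and B cells. In bulk RNA, fewer cells of a type and less RNA per cell cannot be told apart.

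Total counts ran from 4476563 to 4628289 in the Id2-null cultures, from 4657719 to 4831831 in the WT cultures and from 4128414 to 4500825 in the sorted libraries. A count of 0 allows a level of up to 0.621 to 0.727 CPM, by a limit of 3 counts per library that covers counting error only. Id2, the targeted gene, had counts of 56, 113 and 44 in the Id2-null cultures, against 1958, 1925 and 1945 in the WT cultures. All 10 NK markers, among them Ncr1 and Klrb1c, were above 15 CPM in each sorted library. Their summed level was 7875 to 8213 CPM in Id2-null cultures, 10638 to 13426 CPM in WT cultures and 15063, 23461 and 32682 CPM in Immature, M1 and M2. Gzma alone stood at 170 to 751, 3193 to 5082 and 1830, 7217 and 14725 CPM in these libraries. Gzma and Tbx21 were lower in every Id2-null culture than in any WT culture, and Eomes and Il2rb were higher. The ranges of the other NK markers overlapped between genotypes. M2 was above Immature for 7 of the 10 and below it for Klrk1, Eomes and Il2rb. The X-inactivation RNA Xist stood at 672 to 956 CPM in Id2-null cultures, at 0.211 to 1.24 CPM in WT cultures and at 80.2 to 121 CPM in sorted libraries. The Y-linked gene Ddx3y stood at 0.223 to 0.669 CPM, 75.1 to 80.9 CPM and 32.9 to 43.0 CPM in those groups. Sex and genotype therefore cannot be told apart in the cultures, and each sorted library held transcripts of both kinds.

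By role groups set after the values were seen, the label of NK genes does not describe most of the 18. In these groups 10 genes are associated with macrophages or granulocytes, though not all are particular to them. H2-Eb1 is known from B cells and other antigen-presenting cells. Among the marker lists of other cells, 4 macrophage markers, 2 neutrophil markers and 1 B cell marker are members. The remaining 7 include genes of enzymes, signalling proteins, a heat shock protein and an interferon-induced protein. The 18 genes are therefore called sorted-only genes below, after the rule and not after a cell type. Their reads summed to 2.59 to 4.47 CPM in Id2-null cultures, 3.81 to 5.8 CPM in WT cultures, and 813, 937 and 2255 CPM in Immature, M1 and M2.

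**Figure D1:**
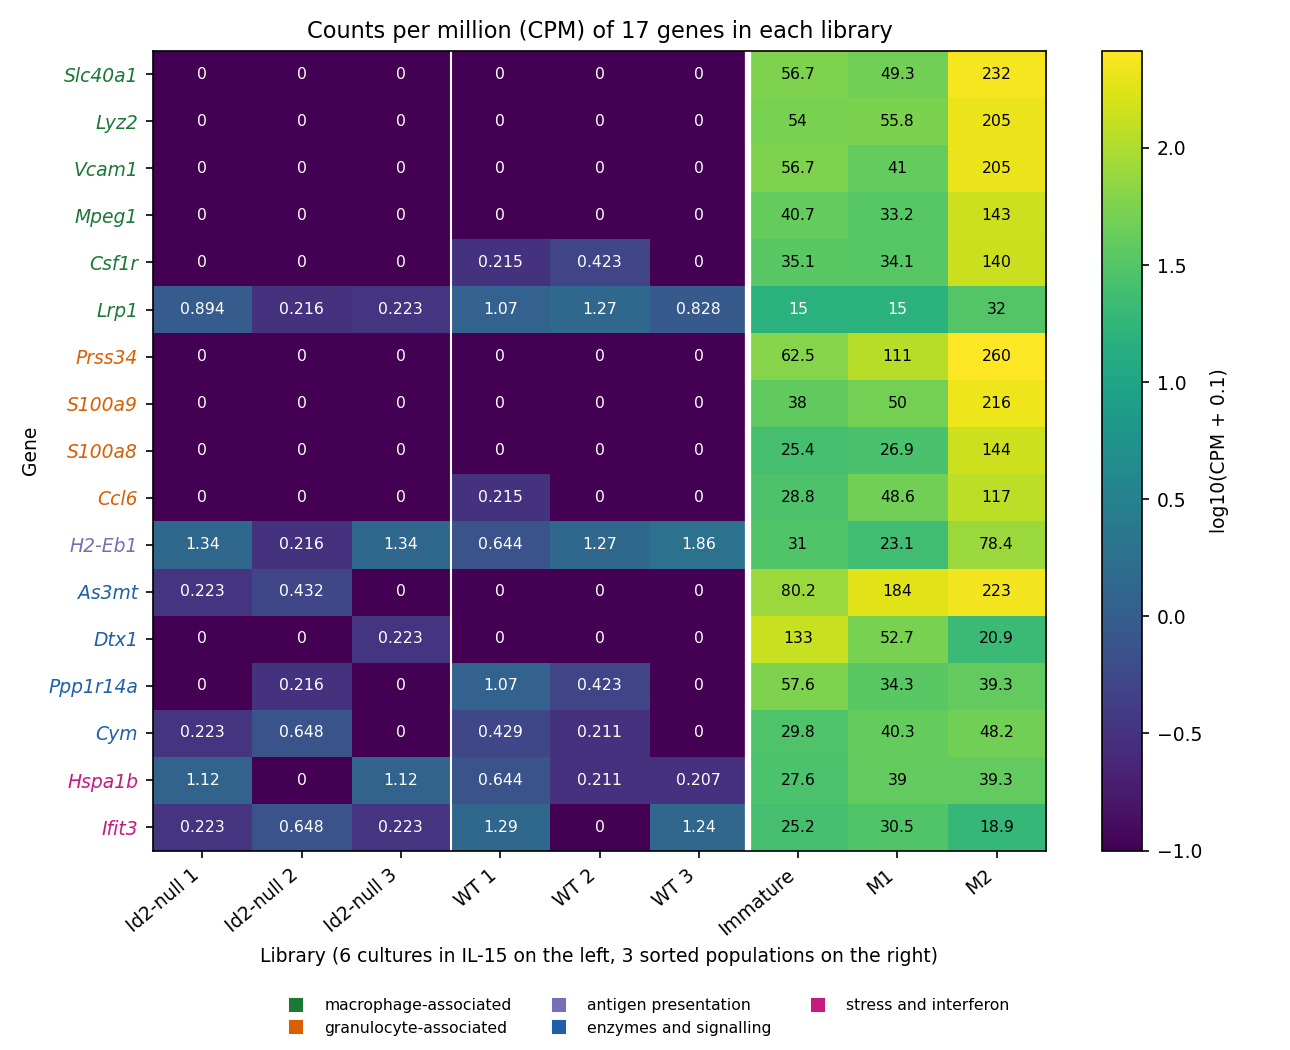
Level of 17 of the 18 genes (rows, coloured by role) in each library (columns), in CPM as printed in the cells, with colour for log10(CPM + 0.1). The cultures lie at 0 to 1.86 CPM, while the sorted libraries lie at 15 to 260 CPM and most macrophage and granulocyte genes are highest in M2.

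Between the sorted populations, 13 of the 18 genes were at least 2-fold higher in M2 than in Immature cells and 1, Dtx1, was at least 2-fold lower. Over the 6830 genes at the same floor these shares were 1.98% and 2.20%. The median ratio of M2 over Immature was 3.56 for the 18 genes and 0.97 for all 6830. The larger part of this difference lay between M1 and M2. There 11 of the 18 genes were at least 2-fold higher and 1 lower (background 0.498% and 0.864%), with a median ratio of 2.38. Between Immature and M1, 2 genes were at least 2-fold higher and 1 lower (background 0.659% and 0.556%), with a median ratio of 1.05. Each population had 1 library, so these ratios have no replicate check, and the intervals given with them are exact 95% intervals for counting error.

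**Figure D2:**
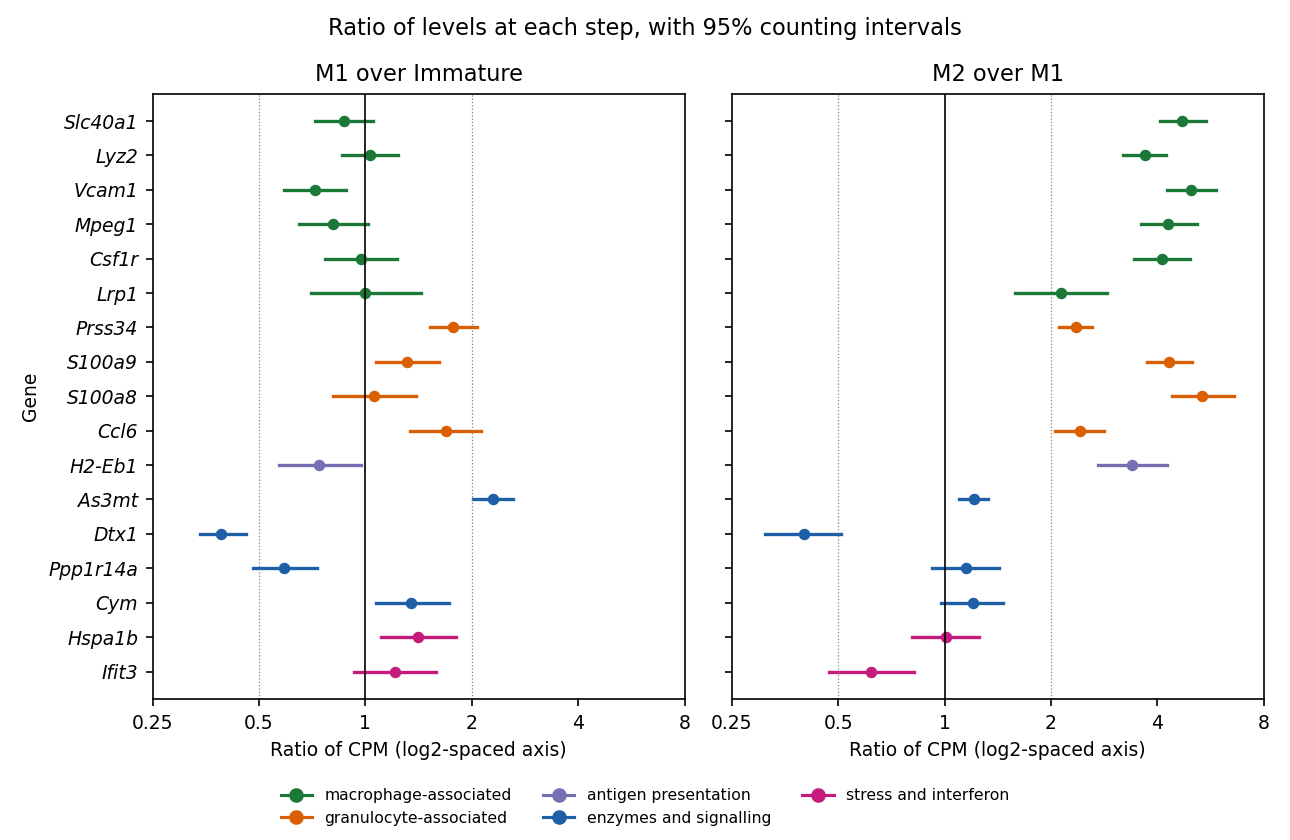
Ratio of CPM of M1 over Immature (left) and M2 over M1 (right) for 17 of the 18 genes on a log2-spaced axis, with points for the ratio, bars for 95% counting intervals and dotted lines at 0.5 and 2. The macrophage genes lie near 1 on the left, between 0.72 and 1.03, and between 2.13 and 4.99 on the right, whereas As3mt lies at 2.30 on the left.

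The 6 macrophage-associated genes were all higher in M2 than in M1, with M1 over Immature ratios of 0.72 to 1.03. Slc40a1 encodes ferroportin, the exporter that releases recycled iron from macrophages. It had no read in any culture, while Immature held 56.7 CPM, M1 49.3 CPM and M2 232 CPM. Its M2 value was 4.71 times that of M1 (interval 4.07 to 5.48), while M1 over Immature was 0.87 (0.72 to 1.05). Lyz2, which encodes the lysozyme of macrophages and neutrophils, also had 0 counts in all 6 cultures. It stood at 54.0, 55.8 and 205 CPM in Immature, M1 and M2. Vcam1, an adhesion molecule that binds integrins and is carried by red pulp macrophages and stromal cells, had no read in a culture either. Its levels were 56.7, 41.0 and 205 CPM in the sorted libraries, and its interval for M1 over Immature lay below 1 (0.59 to 0.88). These 3 genes were highest in M2, and Vcam1 was lowest in M1.

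Mpeg1, which encodes a pore-forming protein of macrophages, was at 0 counts in every culture and at 40.7, 33.2 and 143 CPM in Immature, M1 and M2. Csf1r, the receptor for the growth factor on which macrophages depend, had no read in Id2-null cultures and counts of 1, 2 and 0 in WT cultures. In the sorted libraries it stood at 35.1, 34.1 and 140 CPM. Lrp1, a large endocytic receptor, had the lowest level of the group. It had counts of 4, 1 and 1 in Id2-null cultures and 5, 6 and 4 in WT cultures, and stood at 15, 15 and 32.0 CPM in Immature, M1 and M2. Per kilobase of gene its mean over the sorted libraries was 1.39 CPM, against 33.4 CPM for Slc40a1 and 99.3 CPM for Lyz2. Its ratio of M2 over Immature, 2.13, was also the smallest of the 6, and those of the other 5 lay between 3.51 and 4.1.

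The 6 macrophage genes together held 0.216 to 0.894 CPM in Id2-null cultures, 0.828 to 1.69 CPM in WT cultures, and 258, 228 and 957 CPM in Immature, M1 and M2. Their reads were also set against those of Lyz2 within each sorted library. For every 100 reads of Lyz2 there were 65.0 reads of Csf1r in Immature (interval 52.4 to 80.5), 61.0 in M1 (49.6 to 75.0) and 68.4 in M2 (61.7 to 75.7). For Slc40a1 these values were 105, 88.4 and 113, with overlapping intervals for Immature and the other libraries. Mpeg1 had 75.3, 59.4 and 69.6 reads per 100 of Lyz2, with overlapping intervals. Vcam1 had 105, 73.5 and 99.8, and its M1 interval of 60.4 to 89.3 lay below that of M2 (91.0 to 109). Lrp1 had 27.8, 26.9 and 15.6, and its M2 interval of 13.0 to 18.6 lay below the others.

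The wider macrophage list had the same course over the sorted libraries. It holds 12 markers, 4 of them members, and all 12 were at least 2-fold higher in M2 than in Immature. Its summed level was 9.15 to 17.4 CPM in Id2-null cultures, 24.0 to 31.3 CPM in WT cultures and 315, 276 and 1230 CPM in Immature, M1 and M2. Of the 12, 8 were at 0 counts in all 6 cultures, among them the defining markers Adgre1, C1qa, C1qb and C1qc. Others were not absent there. Cd68 stood at 4.68 to 10.8 CPM in Id2-null and 15.5 to 20.5 CPM in WT cultures, against 10.4, 13.4 and 31.3 CPM in the sorted libraries. Cd14 stood at 0.223 to 0.432 CPM and 1.72 to 2.75 CPM, against 0.969, 2.24 and 7.33 CPM. Hmox1 stood at 2.28 to 9.3 CPM over the cultures, against 35.8, 32.5 and 155 CPM. Adgre1 stood at 18.9, 12.3 and 70.4 CPM in the sorted libraries. What cells of this kind contribute to the 18 genes was not tested.

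S100a8 and S100a9 encode the calcium-binding partners that fill the cytoplasm of neutrophils. They are neighbours on chromosome 3, and their promoters are shown because the pair moved together. Each window shown runs from 250 bases before to 50 bases after a start listed for the gene (RefSeq, GRCm38.p6). That start is the outer end of the gene for S100a8, S100a9 and Prss34, but lies inside the gene for As3mt and Dtx1. Capitals mark matches to the TATA box (TATAAA) and the GC box (GGGCGG, either strand). S100a8 is at chr3:90668821-90669120 on the plus strand and S100a9 at chr3:90695672-90695971 on the minus strand.
S100a8: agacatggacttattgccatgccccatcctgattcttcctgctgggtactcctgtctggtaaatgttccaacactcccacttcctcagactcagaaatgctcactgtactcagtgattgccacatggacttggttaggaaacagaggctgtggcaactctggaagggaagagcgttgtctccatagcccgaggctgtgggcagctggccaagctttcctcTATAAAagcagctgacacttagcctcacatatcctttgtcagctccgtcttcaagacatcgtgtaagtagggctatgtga
S100a9: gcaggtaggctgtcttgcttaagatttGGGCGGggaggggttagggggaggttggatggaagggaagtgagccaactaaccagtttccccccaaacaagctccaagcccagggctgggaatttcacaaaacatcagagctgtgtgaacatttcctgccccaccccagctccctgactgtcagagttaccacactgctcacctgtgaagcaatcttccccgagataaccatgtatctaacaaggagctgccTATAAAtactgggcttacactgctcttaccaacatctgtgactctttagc
TATAAA began 30 bases before the start of S100a8 and at base 1 after the annotated start of S100a9.

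Neither gene had a read in any of the 6 cultures. S100a9 stood at 38.0, 50 and 216 CPM in Immature, M1 and M2, and S100a8 at 25.4, 26.9 and 144 CPM. Both were 5.67 times higher in M2 than in Immature, with intervals of 4.79 to 6.76 and 4.61 to 7.04. There were 66.9, 53.8 and 66.8 reads of S100a8 per 100 reads of S100a9 in Immature, M1 and M2, and all 3 intervals overlapped. Per kilobase S100a9 had the highest mean level of the 18 genes, 207 CPM over the sorted libraries, and S100a8 followed with 167 CPM. The neutrophil list of 10 markers summed to 0 to 0.223 CPM in Id2-null cultures, to 0 CPM in WT cultures and to 101, 137 and 541 CPM in Immature, M1 and M2. Of the 10, 9 were at least 2-fold higher in M2 than in Immature, and Ly6g had no read in Immature and 0.667 CPM in M2. In all cultures 8 were at 0 counts, among them Mpo, Ngp and Ltf. Their part in the S100a8 and S100a9 values was not tested.

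Prss34, a serine protease of basophils and mast cells, had the second highest mean among the 18 genes before correction for length. Its promoter, at chr17:25298144-25298443 on the plus strand, is shown with that of As3mt below because these genes had the highest mean CPM, and it held none of the 5 motifs searched.
Prss34: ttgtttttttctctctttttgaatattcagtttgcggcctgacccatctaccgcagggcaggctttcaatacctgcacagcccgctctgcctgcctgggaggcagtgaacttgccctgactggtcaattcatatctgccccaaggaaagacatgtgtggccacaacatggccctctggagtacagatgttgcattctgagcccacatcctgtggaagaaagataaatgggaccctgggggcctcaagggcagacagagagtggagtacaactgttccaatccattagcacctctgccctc
Prss34 had no read in any culture and stood at 62.5, 111 and 260 CPM in Immature, M1 and M2. Its level was higher at each step, 1.77 times (interval 1.52 to 2.07) and then 2.35 times (2.11 to 2.61). Ccl6, a chemokine of mouse myeloid cells, had the same graded course. It had no read in Id2-null cultures and counts of 1, 0 and 0 in WT cultures, against 28.8, 48.6 and 117 CPM in the sorted libraries. Its steps were 1.69 and 2.41 times, so these 2 genes were already higher in M1, unlike the macrophage genes.

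Mcpt8, the basophil protease in the mast cell and basophil list, ran alongside Prss34 in the sorted libraries at 24.7, 54.9 and 131 CPM. It was outside the rule because its cultures held 2.45 to 7.37 CPM in Id2-null and 11.2 to 28.1 CPM in WT cells. There were 253, 202 and 199 reads of Prss34 per 100 of Mcpt8 in Immature, M1 and M2, with overlapping intervals. The 5 genes of that list, none of them a member, summed to 2.45 to 8.94 CPM in Id2-null cultures and to 12.8 to 30.9 CPM in WT cultures. They summed to 56.4, 117 and 242 CPM in the sorted libraries, and the high-affinity IgE receptor genes Fcer1a and Ms4a2 were at 0 counts in all cultures. Their part in the Prss34 values was not tested.

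H2-Eb1 encodes a beta chain of the class II molecules that present antigen to T cells. Its counts were 6, 1 and 6 in Id2-null cultures and 3, 6 and 9 in WT cultures, or 0.965 ± 0.649 and 1.26 ± 0.609 CPM (SD, n = 3 each). In Immature, M1 and M2 it stood at 31.0, 23.1 and 78.4 CPM. It was lower in M1 than in Immature (ratio 0.74, interval 0.57 to 0.97) and 3.40 times higher in M2 than in M1. Another class II gene, H2-Aa, had 2.69 CPM in WT replicate 3 and so missed the rule. It stood at 46.7, 26.7 and 125 CPM in Immature, M1 and M2. The B cell list of 15 markers summed to 66.9 to 116 CPM in Id2-null cultures, 32.9 to 67.6 CPM in WT cultures and 303, 207 and 718 CPM in the sorted libraries. Its markers Ms4a1, Pax5 and Blk were at 0 counts in all cultures, and 12 of the 15 were at least 2-fold higher in M2 than in Immature. Other markers differed. The class II gene H2-Ab1 stood at 4.91 to 50.3 CPM in Id2-null and 5.38 to 43.8 CPM in WT cultures, against 30.8, 17.9 and 83.8 CPM in the sorted libraries. Bank1 was at 35.5 to 47.8 CPM in Id2-null and 6.83 to 17.6 CPM in WT cultures, against 2.18, 5.83 and 14.7 CPM. Cd22 was lower in M2 than in Immature, at 36.1, 10.1 and 10.2 CPM. The part of the B cell markers in the H2-Eb1 values was not tested.

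**Figure D3:**
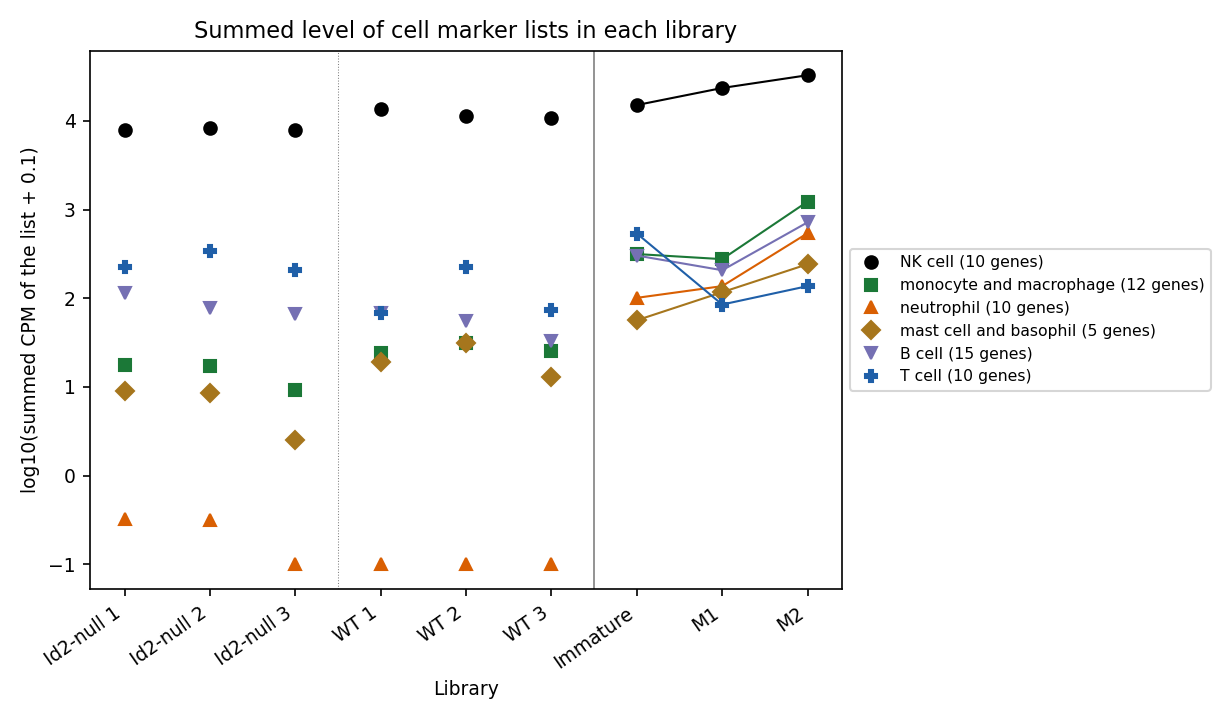
Summed CPM of 6 marker lists in each library, as log10 of the sum + 0.1, with lines joining the 3 sorted populations. Macrophage markers go up to 1230 CPM and neutrophil markers to 541 CPM in M2, NK markers are the highest list in every library, and the T cell sum, mostly Cd3d, Cd3e and Cd3g, is 537 CPM in Immature.

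As3mt had the highest mean of the 18 genes in CPM. It encodes an enzyme that methylates arsenic, known chiefly from the liver. Its promoter window at chr19:46707208-46707507, on the plus strand, lies wholly inside the gene, which begins at 46707157. Capitals mark a match to the FOXO motif (GTAAACA, here on the opposite strand) 200 bases before the start used for the window. They also mark a match to the AP-1 motif (TGANTCA) 152 bases before that start.
As3mt: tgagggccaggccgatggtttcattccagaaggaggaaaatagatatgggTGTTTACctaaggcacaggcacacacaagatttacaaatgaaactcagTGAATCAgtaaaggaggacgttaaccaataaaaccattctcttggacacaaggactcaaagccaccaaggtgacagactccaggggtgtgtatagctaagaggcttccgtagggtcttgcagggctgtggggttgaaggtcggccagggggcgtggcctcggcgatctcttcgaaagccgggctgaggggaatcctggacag
As3mt had counts of 1, 2 and 0 in Id2-null cultures and none in WT cultures, against 80.2, 184 and 223 CPM in Immature, M1 and M2. With the 3 sorted libraries pooled and the WT total set at the limit of 3 counts, it was at least 781-fold lower in WT cultures. Its M1 level was 2.30 times that of Immature (interval 2.02 to 2.62) and its M2 level 1.21 times that of M1 (1.10 to 1.33). Most of the difference thus lay in the first step, in contrast to the macrophage genes. Borcs7, which ends 3775 bases before As3mt begins and was chosen after its values were seen, stood at 25.4, 60.9 and 105 CPM in Immature, M1 and M2. It was not absent from cultures, at 6.92 to 13.4 CPM in Id2-null and 5.79 to 9.23 CPM in WT cells.

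Cym encodes chymosin, the milk-clotting protease of the stomach of young ruminants. It had counts of 1, 3 and 0 in Id2-null cultures and 2, 1 and 0 in WT cultures, and stood at 29.8, 40.3 and 48.2 CPM in Immature, M1 and M2. Its ratio of M2 over Immature was 1.62 (1.29 to 2.04).

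Dtx1 was the member with the opposite course. It encodes Deltex, a ubiquitin ligase that acts in the Notch pathway, which guides lymphocyte fate. Its promoter window at chr5:120711620-120711919, on the minus strand, is shown as that of the gene with the lowest M2 over Immature ratio. Capitals mark 3 GC boxes, of which the last 2 overlap. All 3 lie inside the gene, which begins at 120711867 on that strand.
Dtx1: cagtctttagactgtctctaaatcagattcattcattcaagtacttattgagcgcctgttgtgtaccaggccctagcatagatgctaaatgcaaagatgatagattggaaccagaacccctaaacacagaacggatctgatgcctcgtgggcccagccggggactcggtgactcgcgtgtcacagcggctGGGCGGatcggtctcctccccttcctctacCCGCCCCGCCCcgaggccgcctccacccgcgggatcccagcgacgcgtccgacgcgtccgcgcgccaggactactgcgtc
Dtx1 had counts of 0, 0 and 1 in Id2-null cultures and none in WT cultures, while the Immature library held 133 CPM, M1 52.7 CPM and M2 20.9 CPM. It was lower at each step, at 0.39 (interval 0.34 to 0.46) and then 0.40 (0.31 to 0.51) of the level before. M2 cells held 0.16 times the Immature level (0.12 to 0.20). The 18 genes included no other with both intervals below 1. Other Notch genes, chosen after their values were seen, were measured in the cultures as well. Dtx3, a relative of Dtx1, was also lower at each step, at 17.9, 10.8 and 6.44 CPM in Immature, M1 and M2, but stood at 64.3 to 86.0 CPM in Id2-null and 62.9 to 77.0 CPM in WT cultures. Dtx2 went the other way in the sorted libraries, at 23.0, 25.5 and 32.4 CPM, and Dtx4 was at 0.448 to 1.33 CPM there. Notch1 stood at 112 to 150 CPM in Id2-null cultures, 160 to 206 CPM in WT cultures and 140, 150 and 96.6 CPM in Immature, M1 and M2. Notch2 stood at 93.8 to 126 CPM, 143 to 147 CPM and 170, 209 and 178 CPM in those libraries. Hes1, a target of the pathway, stood at 13.2 to 30.6 CPM in Id2-null cultures, 0 to 1.90 CPM in WT cultures and 12.8 to 21.6 CPM in sorted libraries. The 10 T cell markers summed to 537, 84.9 and 137 CPM in Immature, M1 and M2. Cd3d, Cd3e and Cd3g made up most of the Immature sum, at 222, 103 and 151 CPM, whereas Cd4, Cd8a, Cd8b1 and Cd6 were higher in M2 than in Immature. Their part in the Dtx1 values was not tested.

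Ppp1r14a encodes an inhibitor of myosin phosphatase known from smooth muscle. Its counts were 0, 1 and 0 in Id2-null cultures and 5, 2 and 0 in WT cultures, against 57.6, 34.3 and 39.3 CPM in Immature, M1 and M2. It was lower in M1 than in Immature (ratio 0.59, interval 0.48 to 0.73), and its M2 over M1 interval held 1 (0.92 to 1.43).

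Hspa1b and Ifit3 belong to responses that cells switch on under stress or interferon. Hspa1b, an inducible heat shock protein gene, had counts of 5, 0 and 5 in Id2-null cultures and 3, 1 and 1 in WT cultures. It stood at 27.6, 39.0 and 39.3 CPM in Immature, M1 and M2. Its near-identical copy Hspa1a stood at 9.69, 17.5 and 18.2 CPM there and at 0 to 0.423 CPM in the cultures, so how their shared reads were divided is uncertain. Hspa1b was the single member among 45 genes of the immediate early and tissue handling list, of which 34 were at 15 CPM or more in each sorted library. That list summed to 4210 to 5380 CPM in Id2-null cultures, 3735 to 4557 CPM in WT cultures and 9691, 13898 and 11479 CPM in Immature, M1 and M2. Of its 45 genes, 3 were under 2 CPM in all cultures. Its Fos, Jun, Egr, Nr4a, Dusp and Klf genes were left out by name, and none of them met both bounds. Ifit3, an interferon-induced antiviral gene, had counts of 1, 3 and 1 in Id2-null cultures and 6, 0 and 6 in WT cultures. It stood at 25.2, 30.5 and 18.9 CPM in Immature, M1 and M2, with an M2 over M1 ratio of 0.62 (0.47 to 0.82). Ifit3b, a close copy of Ifit3, had no read in the cultures and 2 to 3.88 CPM in sorted libraries. Ifit1 stood at 1.12 to 1.73 CPM in Id2-null cultures, 1.45 to 3.44 CPM in WT cultures and 19.1, 22.6 and 11.3 CPM in Immature, M1 and M2. Ifit2 stood at 10.7 to 17.6 CPM in Id2-null cultures, 12.1 to 21.9 CPM in WT cultures and 46.3, 48.2 and 58.2 CPM in those libraries, so it was not near 0 in culture and was highest in M2. M2 over Immature ratios were 1.42 for Hspa1b (interval 1.12 to 1.82) and 0.75 for Ifit3 (0.56 to 1.01).

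**Figure D4:**
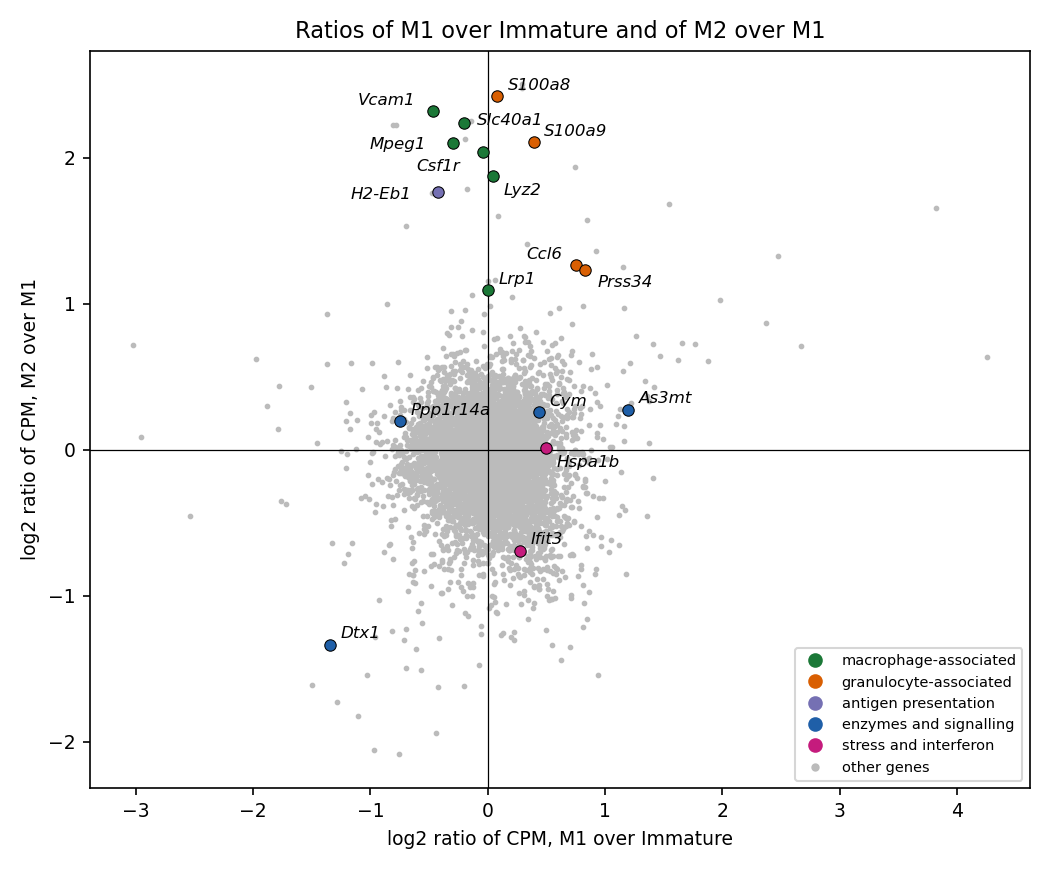
The log2 ratio of CPM for M1 over Immature (horizontal) against that for M2 over M1 (vertical), for 17 of the 18 genes (coloured by role) and the other autosomal genes at 15 CPM or more in each sorted library (grey). Macrophage, granulocyte and antigen presentation genes lie high on the vertical axis, As3mt to the right, and Dtx1 low on both axes.

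For M2 over Immature, the interval lay above 1 in 15 of the 18 genes and below 1 in 2 (background 22.0% and 29.4%). For M1 over Immature these counts were 7 and 4 (background 20.9% and 18.8%). For M2 over M1 they were 13 and 2 (background 15.7% and 24.9%). By the intervals of both steps, the 18 genes took several courses. Higher at each step were 5 genes, among them Prss34, Ccl6, As3mt and S100a9. In 6 genes, Slc40a1, Lyz2, Lrp1, Csf1r, Mpeg1 and S100a8, the first interval held 1 and M2 was above M1. Vcam1 and H2-Eb1 were lower in M1 than in Immature and higher in M2 than in M1, and Dtx1 was lower at each step. The 10 macrophage and granulocyte genes were all at least 2-fold higher in M2 than in Immature, as were 2 of the 7 genes outside those groups and the marker lists, As3mt among them. That division was made after the values were seen.

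The cultures themselves were compared by genotype, the one replicated contrast of the study. Across all genes, 370 of 11022 tested (3.36%) passed an adjusted p of 0.05 between the genotypes (quasi-likelihood test of edgeR with Benjamini-Hochberg adjustment). With the replicate number as a block, 696 did (6.31%). None of the 18 genes reached the count needed to enter that test, as no culture held more than 9 reads of any. Of the 18, 7 had no read in any culture. The other 11 had reads in at least 1 culture, and mean CPM was higher in Id2-null cultures for 5 of the 11 and higher in WT cultures for 6. Because the rule held all 6 cultures under 2 CPM, it limited in advance any difference between genotypes among the 18, and no test of genotype is given for them.

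The 18 genes are all protein-coding and lie on 9 chromosomes. In bases of gene length they ranged from 392 to 14892, with a median of 1874, against 2964 for the 6830 genes at the same floor. A promoter window of 300 bases was found for 14 of the 18 in RefSeq. GGGCGG, on either strand, was in 5 of the 14 (35.7%), against 72.8% of 5459 genes at the same floor with a window and 35.7% of all 32851 windows. TATAAA was in 3, S100a8, S100a9 and Cym (21.4%), against 8.01% and 13.6%. TGANTCA was in Ifit3 and As3mt (14.3%), against 5.84% and 7.81%, and GTAAACA in As3mt (7.14%), against 3.06% and 3.65%. TGACGTCA, the cAMP response element, was in 0 of the 14 windows, against 3.94% and 1.79%. All motifs were searched on both strands, and a gene counted if any of its windows held the motif. Each share of 14 rests on few genes and describes the letters alone.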

How the data were processed

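RNA of 6 IL-15 cultures and 3 sorted populations was analysed. Each deposited file lists unnormalised counts by Entrez identifier beside the gene's length, per the file headers. The submitters' processing notes name Subread, featureCounts, limma and GRCm38 (mm10), without their roles. Tool versions, annotation, strand setting and treatment of multi-mapping reads: not given in the sources used here. Close copies and overlapping genes (Ccl6, Csf1r, Lrp1) are therefore uncertain. Symbols and coordinates came from RefSeq (GRCm38.p6), which named 25275 of 27179 genes.

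CPM is the count over the library total. The rule set bounds of 15 and 2 CPM and a call at 2-fold between sorted libraries. Ratios carry exact conditional 95% intervals computed from the counts of the libraries compared, so they reflect counting error alone. Without molecular identifiers reads can be copies of the same molecule, so the intervals may be too narrow even for that. A count of 0 was read as up to 3 counts, per library or, for a fold against the pooled WT cultures, over the group.

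Genotypes were compared with edgeR 4.0.16 in R 4.3.3 (filterByExpr minimum count 10, TMM, quasi-likelihood, genotype alone), checked on simulated counts. DESeq2 1.42.0, no filter, the replicate block and leaving out libraries were alternatives. Same-numbered cultures deviated together (correlations 0.352, 0.241 and 0.417 for numbers 1 to 3). Between numbers 1 and 2 the correlations were 0.136 and 0.189, and between number 3 and the others -0.397 to -0.261. Numbers 1 and 2 were thus set apart less clearly than number 3. The numbers were taken to pair the cultures in the replicate block alone, and the main fit left pairing out. Nothing says that the replicates are separate animals, so p-values may reflect technical spread alone.

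The members and lists were chosen with earlier results of these data known. All members are named, as the rule for 30 or fewer genes sets, except 1 that is counted in the totals and not reported here. Role groups, related genes and the S100a8 promoter were added after the values were seen. No list was tested as a set.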

Additional observations from a re-analysis of the deposited data

How the results depend on the processing

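The 18 genes kept their membership with TMM-scaled CPM, which added 4 (Cpq, Sirpa, C1qc and C1qa). A floor of 10 CPM gave 34 genes, all 18 included, and leaving out one library in turn gave 18 to 29, the highest without the Immature library. Floors of 20 CPM and culture bounds of 1 and 3 CPM gave 15, 13 and 25 genes. The count of 13 genes at least 2-fold higher in M2 than in Immature was 13 with TMM and with intervals apart from 1, and 14 at 1.5-fold. Among the 7 genes outside the myeloid groups and marker lists, an alternative added after the data were seen, it was 2. TMM raised ratios of M2 over Immature by a factor of 1.069 and moved the median of all 6830 genes by 0.10 on the log2 scale.

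Between genotypes, the 370 genes called became 580 with DESeq2, 696 with the replicate block, 707 with the block and no filter and 1016 without replicate 3 of both genotypes, the last added after the data were seen. Leaving out one library in turn gave 105 (without WT replicate 1) to 624 (without Id2-null replicate 3). These counts are over all genes, since the rule itself held the members near 0 in both genotypes. The cause of these shifts was not tested. Depth limits the cultures, where at most 9 reads of a member were counted, and the sorted populations have no replicates.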

Other observations

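Other marker lists held no member. The 5 plasma cell markers summed to 172 to 183 CPM in Id2-null cultures, 154 to 212 CPM in WT cultures and 96.6, 118 and 228 CPM in Immature, M1 and M2. Most of the culture sums was Xbp1. Jchain stood at 4.54 to 13.2 CPM in Id2-null cultures, 0 to 0.215 CPM in WT cultures and 17.2, 21.1 and 120 CPM in the sorted libraries. The 10 T cell markers summed to 208 to 339 CPM in Id2-null cultures and 68.5 to 225 CPM in WT cultures. The 8 dendritic cell markers summed to 495 to 567 CPM in Id2-null cultures, 403 to 677 CPM in WT cultures and 957, 1086 and 794 CPM in the sorted libraries. Most of each sum was Itgax, at 438 to 511 CPM, 347 to 614 CPM and 913, 1050 and 743 CPM. Of these 8, only Itgax and Bst2 reached 15 CPM in each sorted library. The 8 erythroid markers measured summed to 347, 255 and 222 CPM in Immature, M1 and M2, nearly all of it Car2 at 338, 247 and 194 CPM. Without a read in any culture, the globin genes Hba-a1, Hba-a2 and Hbb-bs were 4.59, 5.20 and 2.67 times higher in M2 than in Immature. Their intervals were wide (2.01 to 12.24, 2.16 to 15.15 and 1.31 to 5.87), at 7.11 to 7.78 CPM in M2. The anion exchanger gene Slc4a1, also without a culture read, had a ratio of 4.59 on few reads, and its interval held 1 (0.98 to 43.05). Alas2 went the other way, at 2.42, 1.34 and 1.56 CPM, with a ratio of 0.64 (0.21 to 1.87). The 8 stromal and endothelial markers summed to 147, 149 and 146 CPM, nearly all of it Pecam1 at 146, 149 and 145 CPM. The 7 platelet markers summed to 14.3, 18.4 and 24.2 CPM.

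The lists for quiescence and homing (28 genes), glucocorticoid and circadian response (17), G protein coupled receptors and their regulators (20) and transforming growth factor beta response (9) also held no member. For the first list this was set by the rule, as its gene Il7r met both bounds and was left out by name. The Klf, S1pr, Cxcr and Dusp genes of these lists were left out by name too, though none of them met both bounds. Of their genes at any sorted level, 2, 3, 1 and 0 were under 2 CPM in all cultures. No share over all genes is given beside these counts.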
